A study of Mus musculus with 15 samples.

Results

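The miRNAs described here are the 8 mature products of the miR-130/miR-301 and miR-148/miR-152 families that were above background in mouse epiblast stem cells and their derivatives: mmu-miR-130a-3p, mmu-miR-130b-3p, mmu-miR-130b-5p, mmu-miR-301a-3p, mmu-miR-301b-3p, mmu-miR-148a-3p, mmu-miR-148b-3p and mmu-miR-152-3p. They are 8 of the 1122 mouse miRNAs on the array and were picked by name, as families, with earlier results of these same arrays known, the differences between treated and control cells among them. Those differences are therefore given as a description, with no p. All 8 passed the filter on low signals that left 306 miRNAs for testing (above background on every array of at least 1 group). This is part of the choice too, since the remaining arms of their hairpins (miR-130a-5p, miR-301a-5p, miR-301b-5p, miR-148a-5p, miR-148b-5p and miR-152-5p) were above background on 0 of the 15 arrays.

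The cells were EpiSC, pluripotent cells of the post-implantation epiblast type, made from Pitx3-GFP mice, in which GFP reports Pitx3, a gene of dopaminergic neurons, and all 5 groups share this reporter. They were differentiated for 14 days. The day 5 group was taken before any morphogen was added. The treated groups (day 9 and day 14) received SHH and FGF8 from day 5, the morphogens used to pattern ventral midbrain, and the control groups (day 9 and day 14) were grown without them. Each group has 3 samples, each on 1 single-colour (Cy3) array. Nothing in the labels says whether the 3 came from separate cultures, so the p-values measure the spread between these samples, which may be technical. The controls carry the same cell type label, EpiSC, as the day 5 cells. The summed signal of 5 pluripotency miRNAs (miR-302a-3p, miR-302b-3p, miR-302d-3p, miR-294-3p and miR-295-3p) was 1.50 to 2.19 on the day 5 arrays, however, against 0.355 to 0.416 in day 9 controls and 0.300 to 0.312 in day 14 controls, where only 2 of the 5 were above background. Pitx3 and other mRNAs are not measured by this array, so the dopaminergic identity of the treated cells was not checked here.

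A miRNA finds its targets mainly through its seed, bases 2 to 8 counted from its 5′ end, and miRNAs with the same seed form a family that can repress largely the same mRNAs. The miR-130/miR-301 family is known for its part in endothelium and proliferating cells. The miR-148/miR-152 family is known for repressing Dnmt1, the maintenance DNA methyltransferase, and is common in differentiated tissues. In most miRNA precursors 1 arm gives the abundant product, as the 3p arm does in both families, and the other arm is mostly degraded.

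The mature sequences show what defines the families. The RefSeq table (build GRCm38.p6) held 7 of the 8, and the capitals mark the seed. The 3p members of the miR-130/miR-301 family read as follows, with miR-721, a miRNA outside the set that carries the same seed.
miR-130a-3p: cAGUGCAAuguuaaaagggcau
miR-130b-3p: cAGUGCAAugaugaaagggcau
miR-301a-3p: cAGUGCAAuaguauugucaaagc
miR-721: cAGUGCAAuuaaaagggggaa
The seed AGUGCAA occurred in 7 of the 1679 mature mouse sequences of that table. Counting from the 5′ end, miR-130a-3p and miR-130b-3p differ at 2 of 22 bases, U11A and A13G, and miR-301a-3p differs from them at 10 and 11 bases, all of them downstream of the seed.

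The miR-148/miR-152 family has the same letters moved by 1 base, so that its seed is CAGUGCA, which 3 of the 1679 sequences carried.
miR-148a-3p: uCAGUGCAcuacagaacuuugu
miR-148b-3p: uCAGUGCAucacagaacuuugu
miR-152-3p: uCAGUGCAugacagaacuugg
Here miR-148a-3p and miR-148b-3p differ at 2 bases (C9U and U10C), miR-148a-3p and miR-152-3p at 3 of 21 (C9U, U10G and U20G) and miR-148b-3p and miR-152-3p at 2 of 21 (C10G and U20G). The single 5p member has a seed of its own, CUCUUUC, and so belongs with miR-130b-3p by its hairpin and not by its seed.
miR-130b-5p: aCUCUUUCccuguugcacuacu
Probes for miRNAs that differ by 2 or 3 bases can bind each other's RNA. How much of each signal came from the paralog was not tested.

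The members come from 7 hairpins at 6 places in the genome (GRCm38.p6). Mir130a lies at chr2:84741115-84741178 on the minus strand, in the span of no other annotated gene. Mir130b (chr16:17124061-17124142, minus strand, within the span of 2610318N02Rik) and Mir301b (chr16:17124400-17124496, minus strand) lie 257 bases apart. Mir301, the gene of miR-301a-3p, lies at chr11:87113004-87113089 on the plus strand within the span of Ska2, a kinetochore gene. Mir148b (chr15:103285125-103285221, plus strand) and Mir152 (chr11:96850393-96850465, plus strand) lie within the spans of Copz1 and Copz2, paralogous genes for the zeta subunit of the COPI vesicle coat. Mir148a lies at chr6:51269812-51269910 on the minus strand, within the span of the predicted gene Gm38821. The table used gives gene spans and not exons, so exonic and intronic positions are not stated.

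Signals are given as log2 of the probe's background-subtracted intensity relative to the 75th percentile of 353 probes of the same array, those above background on all 15 arrays. That percentile ran from 149 to 337 intensity units. A value of 0 thus means a signal equal to that percentile, and values were not allowed below a floor of -4.27, near the detection limit. Levels of different miRNAs are not compared, because each probe has its own response. On each array 238 to 333 miRNAs were above background, 3.88% to 5.09% of the spots were outliers and 0 were saturated, and replicates correlated at 0.980 to 0.998 (Pearson, across the 306 tested miRNAs). The number of arrays, 3 a group, limits the precision. The arrays lie on 2 slides. Slide 1 holds day 5, treated day 9 and treated day 14 replicates 1 and 2, and slide 2 holds treated day 14 replicate 3 and all 6 controls, so that treated and control cells at day 9 lie wholly on different slides. In cell populations like these, a higher signal from more cells of a type and one from more RNA per cell cannot be told apart.

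All 8 members had their highest mean in treated cells at day 9, under 3 of the 4 scalings of the arrays tried. With the 75th percentile of all probes 4 of the 8 did, and miR-130a-3p, miR-130b-3p, miR-301a-3p and miR-148b-3p were highest in control cells at day 9. On the 15 arrays, 7 of the 8 were above background everywhere, and miR-152-3p on 14, missing only day 5 replicate 3. With the scaling used for all values here, the members of the miR-130/miR-301 family were lowest at day 14, in control cells for 4 of the 5, and miR-148a-3p and miR-152-3p were lowest in day 14 controls as well.

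**Figure D1:**
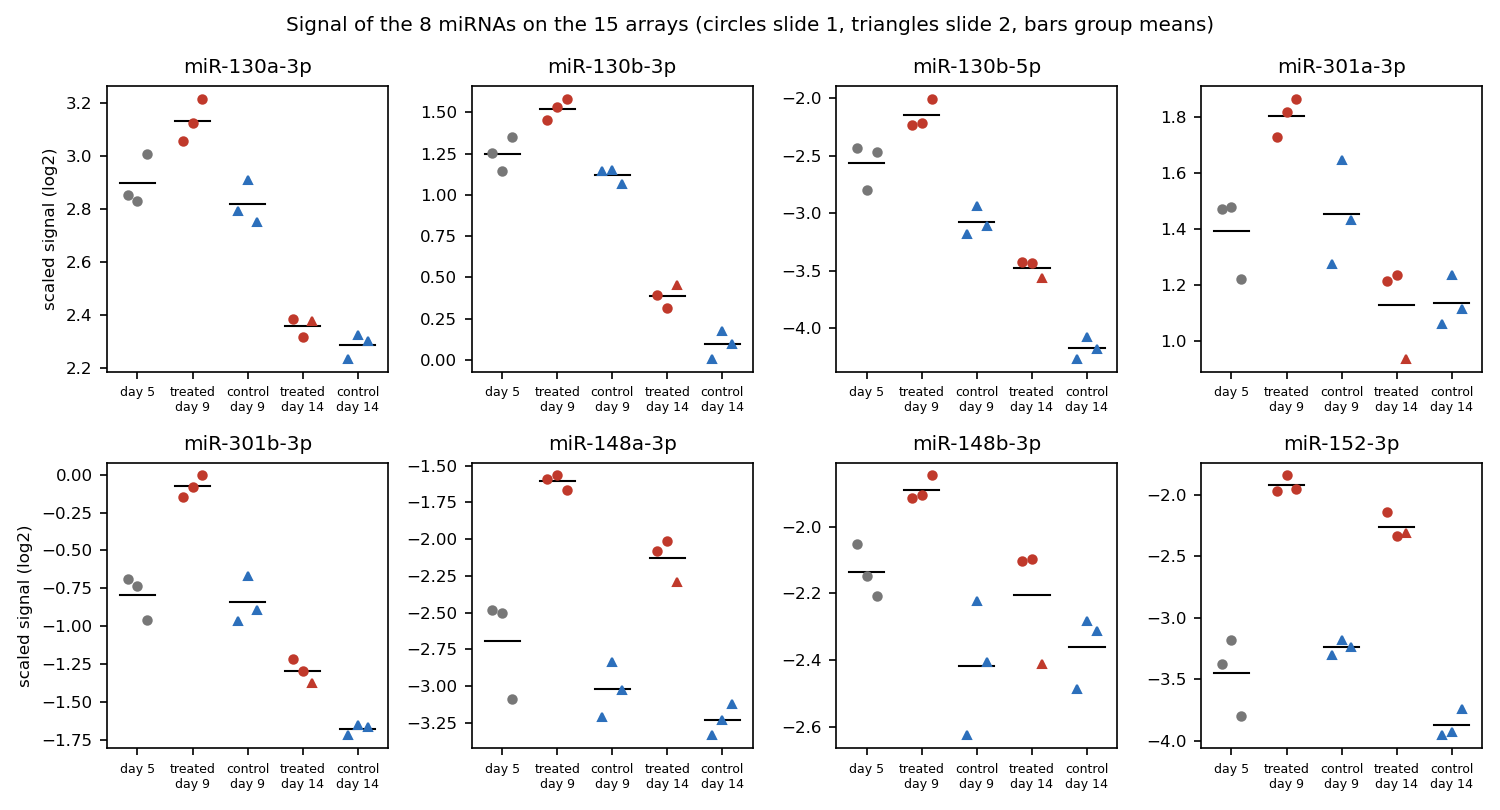
Log2 scaled signal of each of the 8 miRNAs on all 15 arrays, in 5 groups of 3 (grey day 5, red treated, blue control); circles are arrays of slide 1, triangles arrays of slide 2, and black bars group means. Each panel has its own axis; with the scaling plotted, treated day 9 has the highest mean in all 8 panels (in 4 of the 8 with the 75th percentile of all probes), 3.13 for miR-130a-3p and -1.92 for miR-152-3p among them.

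miR-130a-3p, studied as a regulator of vascular cells, gave raw signals of 1076 to 2530 intensity units. Its scaled signals (log2, replicates 1 to 3) were 2.85, 2.83 and 3.01 at day 5, 3.06, 3.13 and 3.22 in treated and 2.79, 2.91 and 2.75 in control cells at day 9, and 2.38, 2.31 and 2.38 in treated and 2.23, 2.32 and 2.30 in control cells at day 14. The day 14 arrays were all below all others, and treated and control overlapped at day 14 but not at day 9. Ordered by their means, the groups ran from treated day 9 through day 5, control day 9 and treated day 14 to control day 14. Day 5 and control day 9 overlapped, as treated and control did at day 14, and the other neighbours did not.

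miR-130b-3p, which differs from it at 2 bases and comes from the chromosome 16 pair of hairpins, gave 1.25, 1.15 and 1.35 at day 5, 1.46, 1.53 and 1.58 in treated and 1.14, 1.15 and 1.07 in control cells at day 9, then 0.39, 0.32 and 0.45 in treated and 0.01, 0.18 and 0.10 in control cells at day 14. The groups stood in the same order as for miR-130a-3p, and the day 5 and control day 9 arrays were the only neighbours that overlapped.

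Its partner arm miR-130b-5p was close to the detection limit, with raw signals of 12.7 to 62.6 intensity units. The values were -2.43, -2.80 and -2.47 at day 5, -2.23, -2.21 and -2.01 in treated and -3.18, -2.94 and -3.11 in control cells at day 9, and -3.42, -3.43 and -3.57 in treated and -4.27, -4.08 and -4.19 in control cells at day 14. The order was again the same and no neighbouring groups overlapped. Control day 14 replicate 1 sat at the floor, which can only make differences from that group smaller. Both arms of the hairpin thus followed each other over the 15 arrays (Pearson r 0.958, a description, since all points share the groups and the scaling).

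miR-301a-3p, known for repressing an inhibitor of NF-kB signalling, gave 1.47, 1.48 and 1.22 at day 5, 1.73, 1.82 and 1.86 in treated and 1.28, 1.65 and 1.43 in control cells at day 9, and 1.21, 1.24 and 0.94 in treated and 1.06, 1.24 and 1.11 in control cells at day 14. Only treated day 9 stood clear of the next group, control day 9. All the other neighbours in the order (control day 9, day 5, control day 14, treated day 14) overlapped.

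miR-301b-3p, the product of the hairpin next to Mir130b, gave -0.69, -0.74 and -0.96 at day 5, -0.15, -0.08 and -0.01 in treated and -0.97, -0.67 and -0.89 in control cells at day 9, and -1.21, -1.29 and -1.37 in treated and -1.72, -1.65 and -1.66 in control cells at day 14. The order of groups was that of miR-130a-3p and both arms of Mir130b, and only day 5 and control day 9 overlapped among neighbours.

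In the miR-148/miR-152 family, miR-148a-3p is known as an abundant miRNA of liver and other differentiated tissues. It gave -2.48, -2.50 and -3.09 at day 5, -1.59, -1.57 and -1.66 in treated and -3.21, -2.83 and -3.02 in control cells at day 9, and -2.08, -2.01 and -2.29 in treated and -3.34, -3.23 and -3.12 in control cells at day 14. All 6 treated arrays were above all 9 others, while day 5 overlapped control day 9 and the control groups of both days overlapped. Treated arrays lay wholly above the controls of their day for 51.3% of all tested miRNAs at day 9 and 41.2% at day 14. Day 5 replicate 3 was the lowest of the day 5 arrays, as it was for miR-152-3p.

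miR-152-3p, from the Copz2 locus, gave -3.37, -3.18 and -3.80 at day 5, -1.97, -1.84 and -1.96 in treated and -3.30, -3.18 and -3.24 in control cells at day 9, and -2.14, -2.34 and -2.31 in treated and -3.96, -3.93 and -3.75 in control cells at day 14. Here too the 6 treated arrays were above the 9 others, by a wide gap. Its raw signals, 10.7 to 80.7 intensity units, reach the detection limit at the low end.

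miR-148b-3p, the Copz1 member, varied least of the 3. Its values were -2.05, -2.15 and -2.21 at day 5, -1.91, -1.91 and -1.85 in treated and -2.63, -2.22 and -2.40 in control cells at day 9, and -2.10, -2.10 and -2.41 in treated and -2.49, -2.28 and -2.31 in control cells at day 14. Treated day 9 stood clear of all other groups, and every other pair of neighbours in the order overlapped. Its whole range over the 15 arrays was 0.78, against 1.77 for miR-148a-3p and 2.11 for miR-152-3p, on the log2 scale.

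The arrays carry 2 to 4 probes for each member, and the values above come from the brightest. Where a miRNA had at least 2 probes above background on 12 or more arrays, the 5 differences compared between groups (treated minus control on both days, and 3 steps between days) came out alike from each of those probes. The widest gap between probes on the log2 scale was 0.03 for miR-130a-3p, 0.09 for miR-130b-3p, 0.17 for miR-301a-3p, 0.20 for miR-301b-3p, 0.07 for miR-148a-3p and 0.09 for miR-152-3p. By this rule miR-130b-5p and miR-148b-3p rest on 1 probe each. Probes above background on fewer arrays differed more. One for miR-130b-5p (11 arrays) gave 0.90 against 0.93 for treated minus control at day 9, but 0.17 against 0.70 at day 14. From day 9 to day 14 it gave -0.70 against -1.10 in control cells and -1.44 against -1.33 in treated cells. One for miR-301b-3p (10 arrays) gave 0.15 against 0.38 at day 14, and -0.33 against -0.84 in that control step.

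The comparisons between days ask how the miRNAs moved as differentiation went on, with and without the morphogens. They use the same arrays as the treated against control differences that were in view when the members were picked, so their p-values (limma, Benjamini-Hochberg adjusted over the 306 miRNAs, called below 0.05) place a change against the spread between arrays and are not independent support for anything else.

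From day 5 to day 9, with SHH and FGF8, 7 of the 8 members rose, beside 37.6% of the 306 miRNAs called higher in this comparison. The median change of the members was 0.41 (log2) and that of all tested miRNAs 0.10. miR-152-3p rose by 1.53 (SE 0.13, adjusted p = 1.61e-07), miR-148a-3p by 1.08 (SE 0.15, adjusted p = 1.91e-05) and miR-301b-3p by 0.72 (SE 0.09, adjusted p = 9.78e-06). These 3 had the largest rises of the set. The other 4 that rose did so by less: miR-130b-5p by 0.42, miR-301a-3p by 0.41, miR-130b-3p by 0.27 and miR-130a-3p by 0.24, with adjusted p from 0.00368 to 0.0104. With the 75th percentile of all probes these 4 were at 0.19, 0.19, 0.05 and 0.01 and none was called; with the median of probes above background the last 3 were at 0.29, 0.15 and 0.12 and not called. miR-148b-3p was 0.25 higher at day 9 (SE 0.11, adjusted p = 0.0667), although its 3 treated arrays lay above its 3 day 5 arrays, as in the other 7 members (39.5% of all tested miRNAs did so). All arrays of this comparison lie on slide 1. Fitted on slide 1 alone the differences are the same and miR-148b-3p passed too (adjusted p = 0.00862). Without treated day 9 replicate 3 the rise of miR-130a-3p was 0.19 and no longer passed (adjusted p = 0.0556). Leaving out day 5 replicate 1, treated day 14 replicate 3, control day 9 replicate 1 or 2, or control day 14 replicate 2 each brought miR-148b-3p past the threshold, at 0.24 to 0.29.

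From day 9 to day 14 in treated cells all 8 members fell, beside 30.7% of all tested miRNAs called lower, and the 3 arrays of day 14 lay below those of day 9 for each (35.9% of all). The median of the members was -0.72 and that of all tested miRNAs 0.01. The falls were larger in the miR-130/miR-301 family: miR-130b-5p by 1.33 (SE 0.11, adjusted p = 1.20e-07), miR-301b-3p by 1.22 (SE 0.09, adjusted p = 5.81e-08) and miR-130b-3p by 1.13 (SE 0.07, adjusted p = 1.48e-08). These are the 3 products of the chromosome 16 pair of hairpins. miR-130a-3p fell by 0.78 and miR-301a-3p by 0.67 (adjusted p = 4.22e-07 and 0.000104). In the miR-148/miR-152 family miR-148a-3p fell by 0.52 (SE 0.15, adjusted p = 0.00640), miR-152-3p by 0.34 (SE 0.13, adjusted p = 0.0296) and miR-148b-3p by 0.32 (SE 0.11, adjusted p = 0.0198). Whether the families differ in this step was not tested. On slide 1 alone, with 2 arrays at day 14, the 5 falls of the miR-130/miR-301 family were 0.58 to 1.28 and passed, while miR-148a-3p (-0.44, adjusted p = 0.0723) and miR-152-3p (-0.32, adjusted p = 0.161) did not. With slide as a fixed block 6 of the 8 stayed called, and miR-148b-3p (-0.21, adjusted p = 0.102) and miR-152-3p (-0.32, adjusted p = 0.0807) did not. The fall of miR-152-3p was -0.29 and not called with the 75th percentile of all probes. It also missed the threshold without any 1 of treated day 9 replicates 2 and 3 and treated day 14 replicates 2 and 3 (-0.30 to -0.35, adjusted p 0.0559 to 0.0951), and that of miR-148b-3p without treated day 9 replicate 3 (-0.29) or treated day 14 replicate 3 (-0.21).

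In control cells between day 5 and day 9, 0 of the 8 members were called higher by limma (0 at an unadjusted p below 0.05 too) and 2 lower, beside 35% of all tested miRNAs called lower and 23.9% called higher. The 2 lower ones, whose arrays also lay wholly below those of day 5 (as for 34.3% of all), were miR-130b-5p at -0.51 (SE 0.11, adjusted p = 0.000894) and miR-148b-3p at -0.28 (SE 0.11, adjusted p = 0.0388). With the 75th percentile of all probes the latter turned to 0.09 higher and miR-130b-5p was at -0.14, neither called. With that scaling 3 members were instead called higher: miR-152-3p by 0.58 (limma adjusted p = 0.00658), miR-301a-3p by 0.43 (adjusted p = 0.00551) and miR-301b-3p by 0.32 (adjusted p = 0.0296). With quantile normalization miR-152-3p (0.50, adjusted p = 0.0177) and miR-301a-3p (0.31, adjusted p = 0.0274) were called higher too. The differences of the rest, day 9 minus day 5, were -0.33 for miR-148a-3p (adjusted p = 0.0709), -0.13 for miR-130b-3p, -0.08 for miR-130a-3p, -0.05 for miR-301b-3p, 0.06 for miR-301a-3p and 0.21 for miR-152-3p. All of this comparison crosses the slides. With slide as a block neither fall passed: miR-130b-5p was at -0.37 (adjusted p = 0.172) and miR-148b-3p at 0.03 (adjusted p = 0.925). The call of miR-148b-3p was also lost without any 1 of day 5 replicates 1 and 2, treated day 9 replicates 1 and 2, and control day 9 replicates 1 and 3 (-0.16 to -0.29). Calls were gained for miR-148a-3p without day 5 replicate 3 (-0.51, adjusted p = 0.000639) or control day 9 replicate 2 (-0.42), and for miR-152-3p without day 5 replicate 2 (0.35 higher, adjusted p = 0.0216).

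**Figure D2:**
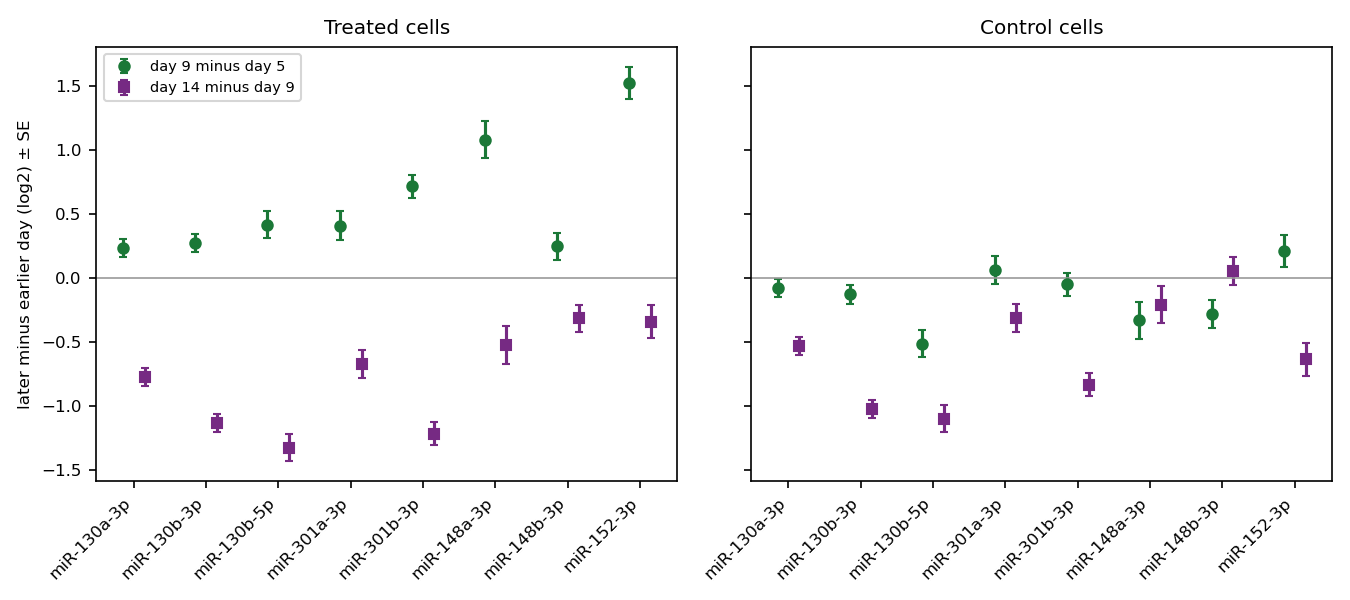
Change of each of the 8 miRNAs between days (log2, later minus earlier, ± SE from limma), in treated cells on the left and control cells on the right; green circles are day 9 minus day 5 and purple squares day 14 minus day 9. The green points of treated cells lie above 0 for all 8, up to 1.53 for miR-152-3p, and the purple points below 0 for all 8, down to -1.33 for miR-130b-5p; in control cells 7 of the 8 purple points lie below 0.

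Signals fell in the control cells as well from day 9 to day 14. All 5 members of the miR-130/miR-301 family and miR-152-3p fell, 6 of 8, beside 22.9% of all tested miRNAs called lower, and the day 14 arrays of the same 6 lay wholly below those of day 9 (as for 26.5% of all). The median of the 8 members was -0.58 and that of all tested miRNAs 0.06. Of these miR-130b-5p fell by 1.10 (SE 0.11, adjusted p = 7.94e-07), miR-130b-3p by 1.03 (SE 0.07, adjusted p = 3.26e-08) and miR-301b-3p by 0.84 (SE 0.09, adjusted p = 2.36e-06). The chromosome 16 products again had the largest falls. miR-152-3p fell by 0.64 (SE 0.13, adjusted p = 0.000666), miR-130a-3p by 0.53 (adjusted p = 1.79e-05) and miR-301a-3p by 0.31 (adjusted p = 0.0268). miR-148a-3p was at -0.21 (adjusted p = 0.272) and miR-148b-3p at 0.06 (adjusted p = 0.729), with 95% intervals of the difference from -0.53 to 0.11 and from -0.18 to 0.29. All 6 arrays lie on slide 2. On slide 2 alone miR-301a-3p missed the threshold (-0.31, adjusted p = 0.0709), as it did without any 1 of control day 9 replicates 2 and 3 and control day 14 replicates 1 and 3 (-0.22 to -0.32). miR-148a-3p passed without day 5 replicate 3, an array of neither group (-0.26, adjusted p = 0.0202), with the 75th percentile of all probes (-0.38, adjusted p = 0.0482) and with the median of probes above background (-0.50, adjusted p = 0.0306).

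Treated against control is the comparison the members were picked with, so the values are described and nothing is read from the counts. A call in it only marks a difference that passed the threshold. Neither such calls nor their keeping under other settings are support. At day 9 all 8 members were higher in treated cells and called so, beside 40.5% of the 306, although 4 of them (miR-130a-3p, miR-130b-3p, miR-301a-3p and miR-148b-3p) turn lower with the 75th percentile of all probes. The treated arrays lay wholly above the control arrays for all 8, as for 51.3% of all tested miRNAs. miR-148a-3p was 1.41 higher (log2, SE 0.15, a 2.67-fold difference), miR-152-3p 1.32 (SE 0.13, 2.49-fold), miR-130b-5p 0.93 (SE 0.11, 1.91-fold) and miR-301b-3p 0.76 (SE 0.09, 1.70-fold). The other 4 were closer to the median of all tested miRNAs, 0.25, at 0.53 for miR-148b-3p, 0.40 for miR-130b-3p, 0.35 for miR-301a-3p and 0.32 for miR-130a-3p. Among the 306, miR-148a-3p and miR-152-3p ranked 16 and 22 from the highest difference, and miR-130a-3p ranked 138.

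At day 14, 5 of the 8 were called higher, beside 39.2% of all tested miRNAs, and the treated arrays of the same 5 lay wholly above the controls (as for 41.2% of all). Of these calls, that of miR-301b-3p was lost under the 3 other scalings of the arrays (0.01 to 0.20) and that of miR-130b-3p under 2 of the 3. miR-152-3p was 1.61 higher (SE 0.13, 3.06-fold) and ranked 5 of 306, and miR-148a-3p was 1.10 higher (SE 0.15, 2.14-fold) and ranked 18. miR-130b-5p was 0.70 higher (SE 0.11), miR-301b-3p 0.38 (SE 0.09) and miR-130b-3p 0.29 (SE 0.07), while the median of all was 0.22. miR-148b-3p (0.16, SE 0.11), miR-130a-3p (0.07, SE 0.07) and miR-301a-3p (-0.01, SE 0.11) were not called, and their treated and control arrays overlapped. Between the days, again as a description of the differences the members were picked with, the treated minus control difference was offset by -0.11 to -0.38 in 7 of the 8 and by 0.30 in miR-152-3p. That shift passed the threshold for miR-301b-3p alone (-0.38, SE 0.13), beside 16% of all tested miRNAs called lower. Its call ended without any 1 of treated day 9 replicates 2 and 3, treated day 14 replicates 2 and 3, control day 9 replicates 1 and 3, and control day 14 replicates 2 and 3 (-0.29 to -0.38). A call was gained by miR-130a-3p, miR-301a-3p and miR-152-3p without day 5 replicate 3, and by miR-301a-3p and miR-148b-3p without control day 9 replicate 2.

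**Figure D3:**
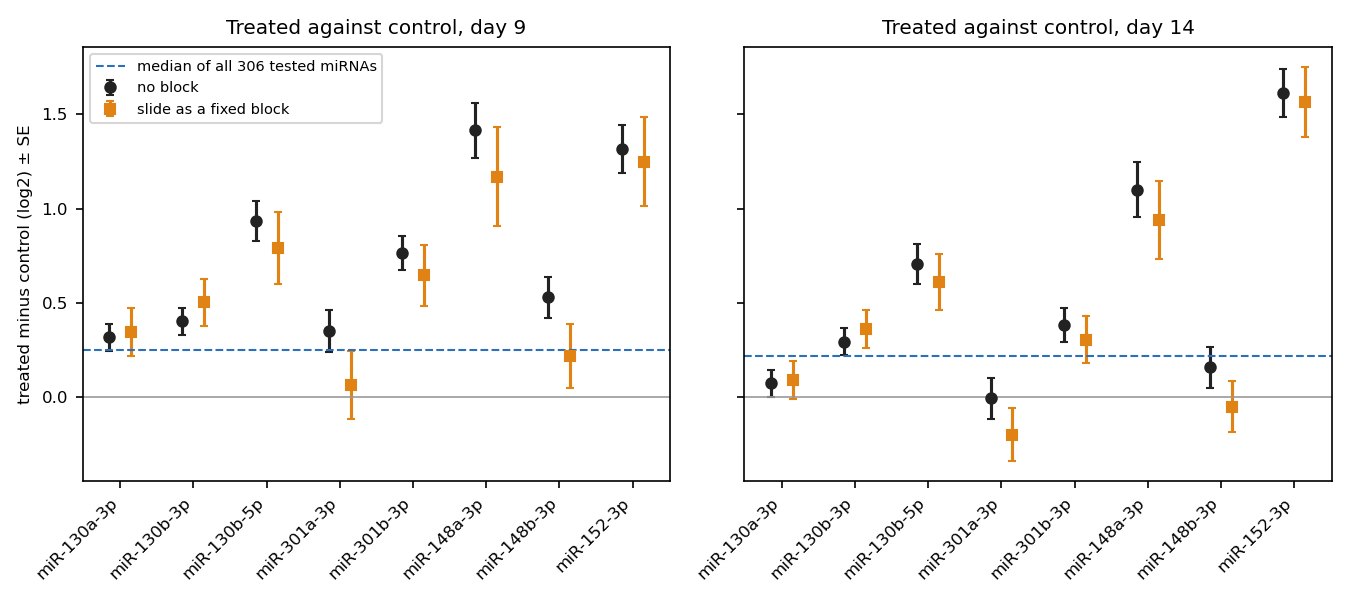
Treated minus control signal of the 8 miRNAs (log2, ± SE from limma) at day 9 on the left and day 14 on the right, without a block (black circles) and with the slide as a fixed block (orange squares); the dashed line is the median of the 306 tested miRNAs, 0.25 at day 9 and 0.22 at day 14. miR-148a-3p and miR-152-3p stand highest on both days under both fits, and with the block miR-301a-3p and miR-148b-3p at day 9 move to 0.06 and 0.22.

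At day 9 treatment and slide coincide, since the groups share no slide. With slide as a fixed block, which rests on the 3 treated day 14 arrays that span both slides, 5 of the 8 stayed called at day 9: miR-152-3p at 1.25, miR-148a-3p at 1.17, miR-130b-5p at 0.79, miR-301b-3p at 0.65 and miR-130b-3p at 0.50. miR-130a-3p (0.35, SE 0.13), miR-148b-3p (0.22, SE 0.17) and miR-301a-3p (0.06, SE 0.18) were no longer called. At day 14 slide 2 holds 1 treated array and the 3 controls. Within it the differences of that 1 array from the control mean were 1.57 for miR-152-3p, 0.94 for miR-148a-3p, 0.61 for miR-130b-5p, 0.36 for miR-130b-3p and 0.30 for miR-301b-3p. They carry no spread of treated arrays and are given without a call. Without treated day 9 replicate 3 or control day 9 replicate 1, miR-301a-3p was not called at day 9 (0.31 and 0.24).

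The differences also moved with the scaling of the arrays. Under 4 scalings (the 75th percentile of probes above background, that of all probes, the median of probes above background, and quantile normalization) the median of all tested miRNAs at day 9 moved from 0.25 to -0.25, 0.01 and 0. The share of calls that were higher in treated cells went from 72.9% to 25.3%, 45.9% and 42.2%. At day 14 that share went from 72.7% to 32.5%, 54.3% and 53.4%. Treated against control remains a description here. miR-148a-3p, miR-152-3p and miR-130b-5p were higher in treated cells, and called so, under all 4 scalings on both days. Their ranges were 0.82 to 1.41, 0.73 to 1.32 and 0.34 to 0.93 at day 9, and 0.69 to 1.10, 1.24 to 1.61 and 0.35 to 0.70 at day 14. miR-301b-3p kept its direction on both days (0.17 to 0.76 at day 9, 0.01 to 0.38 at day 14), and its call under 3 of the 4 at day 9 and 1 of the 4 at day 14. The direction of miR-130a-3p, miR-130b-3p, miR-301a-3p and miR-148b-3p at day 9, and of miR-130b-3p at day 14, turned with the percentile of all probes, as did the uncalled differences of miR-130a-3p and miR-148b-3p at day 14, the former also with the median and the latter under all 3 other scalings. miR-301a-3p, at -0.01 at day 14 as reported, was at -0.38 with that percentile and called lower in treated cells. The falls of the 5 miR-130/miR-301 members between day 9 and day 14 were called under all 4 scalings in treated and in control cells alike, and so were the rises of miR-301b-3p, miR-148a-3p and miR-152-3p from day 5 to day 9 with treatment.

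**Figure D4:**
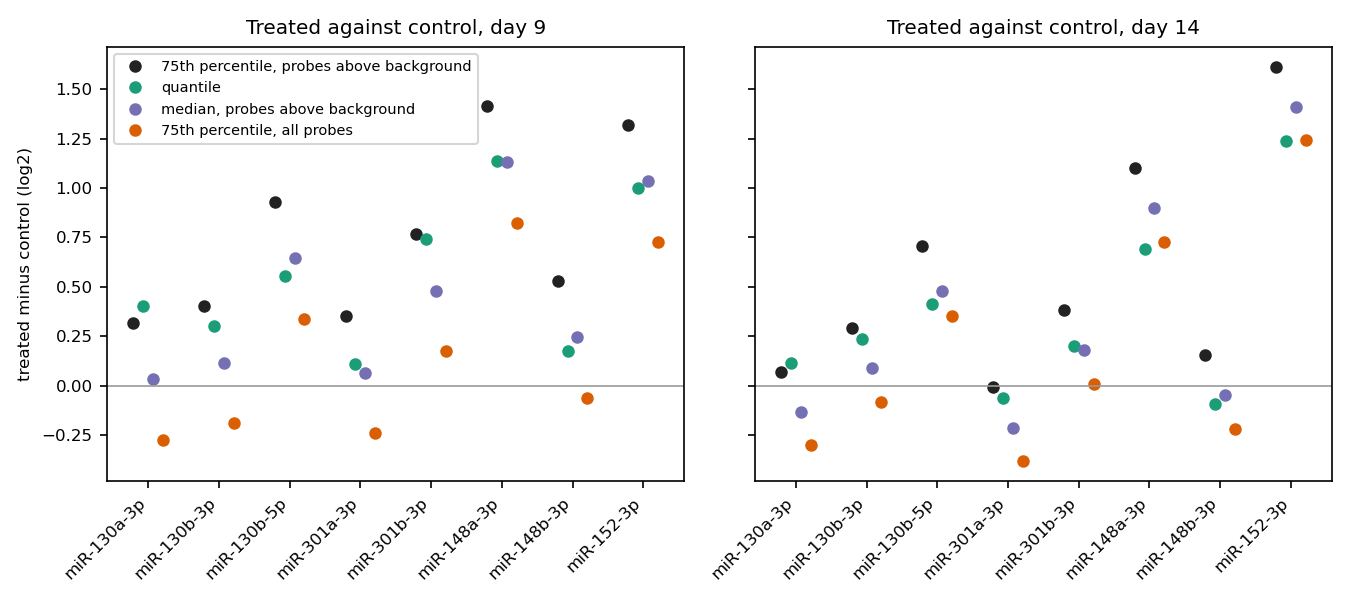
Treated minus control signal of the 8 miRNAs (log2) at day 9 on the left and day 14 on the right under 4 scalings of the arrays, 1 colour each; no error bars are drawn. miR-130b-5p, miR-148a-3p and miR-152-3p lie above 0 under all 4, and miR-130a-3p at day 9 runs from -0.28 to 0.40.

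The weakest signals also depend on where the floor lies. With a floor 4 times higher, miR-152-3p at day 14 was 0.04 higher in treated cells and miR-130b-5p showed no difference there, and neither was called; under normexp background correction miR-130b-5p was 0.04 higher at day 14 and not called. Under the same higher floor miR-130b-5p at day 9 was 0.12 higher and not called, and the falls of miR-130b-5p and miR-152-3p in control cells from day 9 to day 14 came to 0. With normexp the falls of miR-130b-5p (-0.30), miR-301a-3p (-0.28) and miR-152-3p (-0.19) in that control step were not called. The rise of miR-130b-5p from day 5 to day 9 with treatment was 0.12 with the higher floor and 0.10 with normexp, not called. Over all alternatives the rise in that step was as low as 0.35 for miR-152-3p and 0.39 for miR-148a-3p. Treated minus control, their lowest values were 0.35 and 0.66 at day 9, and 0.15 for miR-148a-3p at day 14. The fall of miR-130b-5p from day 9 to day 14 in treated cells was as small as -0.12.

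Correlations between the members are given as a description. Over the 15 arrays the pairs of the miR-130/miR-301 family correlated at 0.811 to 0.986 (Pearson, log2), with miR-130a-3p and miR-130b-3p the most alike. In the miR-148/miR-152 family miR-148a-3p and miR-152-3p correlated at 0.946, miR-148a-3p and miR-148b-3p at 0.832 and miR-148b-3p and miR-152-3p at 0.641. Across the families the values ran from 0.360 (miR-130a-3p with miR-152-3p) to 0.725 (miR-301a-3p with miR-148b-3p). All points share the 5 groups, the slides and the scaling.

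By a fixed rule, the 2 tested miRNAs outside the set with the highest Pearson r to each member over the 15 arrays are named. miR-16-5p was 1 of the 2 for miR-130a-3p (0.955), miR-130b-5p (0.982), miR-301a-3p (0.871) and miR-301b-3p (0.964), and miR-15b-5p for miR-130a-3p (0.951) and miR-130b-3p (0.981). miR-374c-5p stood beside miR-130b-3p (0.976) and miR-130b-5p (0.967), miR-804 beside miR-301a-3p (0.857) and miR-101b-3p beside miR-301b-3p (0.920). For the miR-148/miR-152 family they were miR-27a-3p (0.958) and miR-26b-5p (0.950) for miR-148a-3p, miR-212-3p (0.898) and miR-151-5p (0.887) for miR-148b-3p, and miR-532-5p (0.966) and miR-467b-5p (0.955) for miR-152-3p. The families had no such neighbour in common.

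Other miRNAs of related seed are set beside the members here. Of 4 others that carry the seed AGUGCAA (miR-130c, miR-721, miR-6341 and miR-6389), miR-721 is on the array and was above background on all 15. Its group means (log2 ± SD, n = 3) were -1.13 ± 0.11 at day 5, -1.81 ± 0.09 in treated and -1.94 ± 0.06 in control cells at day 9, and -0.95 ± 0.16 in treated and -1.66 ± 0.20 in control cells at day 14. It thus fell by 0.68 from day 5 to day 9 with treatment (SE 0.11, limma adjusted p = 8.17e-05) and rose by 0.86 from day 9 to day 14 (SE 0.11, adjusted p = 8.44e-06), while miR-130a-3p, miR-130b-3p and miR-301a-3p, which share its seed, rose and then fell. Both steps of miR-721 kept their call and direction under all 4 scalings and with each of the 15 arrays left out in turn. The rises of miR-130a-3p, miR-130b-3p and miR-301a-3p were each called under 2 of the 4 scalings. With the 75th percentile of all probes they were 0.01, 0.05 and 0.19 and not called, so the contrast in the first step depends on the scaling. miR-19a-3p and miR-19b-3p are products of the cluster led by miR-17, which is active in proliferating cells. miR-19b-3p also comes from a hairpin on chromosome X (Mir19b-2), and its signal cannot be split between its hairpins. Both miRNAs have the overlapping seed GUGCAAA.
miR-19a-3p: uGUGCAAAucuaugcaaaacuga
miR-19b-3p: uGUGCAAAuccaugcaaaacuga
Both fell in all 4 comparisons between days. In treated cells the falls were 1.09 and 0.82 from day 5 to day 9 and 1.44 and 1.11 from day 9 to day 14, and in control cells 1.15 and 0.83, then 1.26 and 0.93 (limma adjusted p from 2.28e-07 to 4.94e-06), with the same calls under all 4 scalings and without each array in turn. Treated minus control they were at 0.07 and 0.01 at day 9 and -0.11 and -0.17 at day 14, and neither was called. With the 75th percentile of all probes they were at -0.53 and -0.59 at day 9. Each was called under 1 of the 4 scalings at day 9. At day 14 miR-19a-3p was called under 1 of the 4 and miR-19b-3p under 2, with lowest values of -0.48 and -0.54.

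The miR-29 family, known like miR-148/miR-152 for repressing DNA methyltransferase mRNAs, was followed as a reference list of 3. All 3 were called higher in treated cells on both days, beside 40.5% of the 306 miRNAs at day 9 and 39.2% at day 14. At day 9 they were called under all 4 scalings. At day 14 this was so for miR-29a-3p, while miR-29b-3p and miR-29c-3p were called under 2 of the 4. miR-29c-3p was above background on all 15 arrays and was 0.97 higher in treated cells at day 9 (SE 0.08) and 0.55 at day 14 (SE 0.08). miR-29a-3p was above background on 0 of 3 arrays at day 5, 2 of 3 in control day 9 and 3 of 3 elsewhere, with means of -1.56 in treated and -3.93 in control cells at day 9 and -1.74 and -3.03 at day 14. miR-29b-3p was above background on all 6 treated arrays and on none of the 6 control arrays, at -1.97 in treated day 9 and -3.83 in treated day 14 cells. It passed the filter only through its treated groups and sat at the floor in both control groups. Its higher calls in treated cells were thus favoured by the filter and are no support. With slide as a block the day 14 difference of miR-29b-3p was 0.09 and not called. From day 5 to day 9 with treatment all 3 were called higher, beside 37.6% of all tested miRNAs, with miR-29a-3p at the floor at day 5. In the miR-148/miR-152 family miR-148a-3p and miR-152-3p were called higher in this step, and miR-148b-3p (0.25) was not.

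Markers of other cell types differed between the groups too. The summed linear signal of 6 mesenchyme and smooth muscle miRNAs, 3 of them above background on any array and miR-143-3p, miR-145-5p and miR-214-3p on none, was 0.724 to 0.935 at day 5, 1.71 to 1.92 in treated and 0.948 to 1.02 in control cells at day 9, and 1.17 to 1.26 in treated and 0.811 to 0.868 in control cells at day 14. In the day 5 group and in both control groups only 1 of the 6 was above background, against 3 in the treated groups. In control cells this was miR-21-5p, whose means (log2) were 0.59 in treated and -0.46 in control cells at day 9. At day 14 they were -0.09 and -0.77. The sum thus follows few miRNAs and is not a measure of mesenchyme. With this scaling the sum was highest in treated day 9, as the members were. With the 75th percentile of all probes only 4 of the 8 members were highest there. The sum of 3 glial miRNAs, miR-219-2-3p being below background on every array, was 3.08 to 3.64, then 4.78 to 5.07 and 1.78 to 2.16, then 2.30 to 2.99 and 1.61 to 1.67, in the same order of groups. Its 2 detected members parted at day 14: miR-219-5p was 0.78 higher in treated cells and miR-338-3p 0.41 lower (SE 0.11 and 0.10), while at day 9 they were 1.34 and 0.63 higher. Of 4 endoderm miRNAs 1 was above background (miR-375-3p), in treated cells alone, where the sum was 0.805 to 0.871 at day 9 and 0.536 to 0.613 at day 14. Of 6 endothelial and blood miRNAs none was above background on any array. The sum of 5 neuronal miRNAs took another course, at 3.97 to 4.27 at day 5, 7.74 to 8.05 in treated and 13.6 to 15.2 in control cells at day 9, and 14.8 to 17.3 in treated and 23.8 to 28.1 in control cells at day 14. What part any of these cell types has in the signals of the 8 members was not tested.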

How the data were processed

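Small RNA was measured on 15 Agilent mouse miRNA arrays (release 18, single-colour Cy3), 3 in each of 5 groups. The deposited scanner tables hold spot signals as linear intensity, background-subtracted per spot and not normalized between arrays, per the file headers (Feature Extraction 11.0.1.1). Their flags for spots above background, saturated spots and outliers are of another kind (0 or 1), per the file headers. The deposited value table is also intensity: 2982 of its 3003 rows matched a probe, and 73.3% to 83.8% of the probes in 14 columns equalled the spot means of the scanner tables within 0.1%, so its scale is linear and uncentred. Its column medians ran from -0.0248 to 0.697. Treated day 14 replicates 1 and 2 hold one set of values there (86.1% of probes equal) and so counted once in the alternative built on this table. In the submitters' processing notes limma 3.20.9 appears, with no role given.

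From the scanner tables, the spots of a probe that were not outliers were averaged and scaled by the 75th percentile of that array's 353 mouse probes above background on all arrays (at least 50% of spots flagged). Values were then raised to a floor (-4.27 on the log2 scale, the lowest scaled signal above background, as a median of the arrays) and put on the log2 scale. The brightest probe stood for a miRNA. Of 1122 miRNAs, 306 were above background on all arrays of a group and entered 1 fit in limma 3.58.1 (R 4.3.3; 5 group means, 10 residual and 3.03 prior degrees of freedom), with two-sided p adjusted by Benjamini-Hochberg. Values at the floor have no order. In 20 simulations of the day 9 comparison with 306 miRNAs, 99.8% of changes of 2, 94.8% of changes of 1 and 76.5% of changes of 0.5 (log2) were recovered, and 5.00% of the calls were false. What share of the calls on the measured day 9 arrays is false was not tested. On those arrays treatment and slide coincide, and the differences moved with the scaling.

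The members, the lists and the tests were chosen with earlier results of these arrays known. The text names all 8 members, the 2 tested miRNAs most alike to each, and 2 lists: miRNAs of the same hairpin or seed, and miRNAs of overlapping seed or linked to DNA methyltransferases. Alternatives were 3 other scalings, normexp background correction (offset 50, on median spot and background signals), a floor 4 times higher, the mean over a miRNA's probes, 2 other filters, slide as a fixed or random block, fits within a slide, a replicate block, the value table, and leaving out each array. Same-numbered replicates did not deviate together more than others. Correlations were -0.571 to 0.525 over 30 pairs (median 0.015, 11 above 0.1). For different numbers the median was 0.011, with 23 of 60 pairs above 0.1. Whether the numbers pair samples cannot be settled from these correlations. Sequences and gene spans are from RefSeq tables of GRCm38.p6. Figures used matplotlib 3.10.9.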

Additional observations from a re-analysis of the deposited data

Results flagged for a closer look

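For miR-301b-3p the treated minus control difference depended on the day by limma's interaction test: it was 0.76 at day 9 and 0.38 at day 14, an interaction of -0.38 (log2, SE 0.13). It is built from the treated minus control differences known when the members were picked, so it is a description and no p is given. All 3 treated arrays lay above all 3 control arrays on both days. The interaction held its direction under all alternatives but its call under 14 of 27; with the 75th percentile of all probes it was -0.16 and not called. No technical or biological account of it was tested. Groups of 3 arrays are too small for an outlier test.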

How the results depend on the processing

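Directions are taken only of called values, and a difference of exactly 0 has none. Of 1537 values of the 56 member results under the alternatives, 1401 kept their direction and their side of the threshold. With the 75th percentile of all probes, 7 turned: at day 9, treated minus control, miR-130a-3p was -0.28, miR-130b-3p -0.19, miR-148b-3p -0.062 and miR-301a-3p -0.24, at day 14 miR-130b-3p was -0.080, and from day 5 to day 9 in control cells miR-148b-3p was 0.086 and miR-301b-3p 0.32. With slide as a fixed block miR-148b-3p from day 5 to day 9 in control cells was 0.030. With a floor 4 times higher the day dependence of miR-152-3p was -0.30. The cause was not tested.

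Counts of members called moved as follows. Treated against control at day 9 (8 of 8) it was 3 with the percentile of all probes, 4 with the median and 5 with slide as a fixed block. At day 14 (5) it was 3 with the median, normexp or the higher floor. With the percentile of all probes the day 14 calls included miR-301a-3p, lower in treated cells (-0.38). From day 5 to day 9 in treated cells (7) it was 3 with the percentile of all probes and 4 with the median, and from day 9 to day 14 (8) it was 5 with no filter, where more miRNAs share the adjustment. From day 5 to day 9 in control cells (2) it was 1 with the median, normexp, no filter or the value table and 0 with the higher floor or the slide block. With the percentile of all probes the calls in that step were other members, miR-152-3p, miR-301a-3p and miR-301b-3p, all higher. With quantile normalization miR-130b-5p stayed lower, and miR-152-3p and miR-301a-3p were called higher. From day 9 to day 14 in control cells (6) it was 3 with normexp or the higher floor. The day dependence (1) was 4 with the higher floor, 3 with the mean of the probes, and 0 with the percentile of all probes, the median, no filter, the slide block or the value table. Leaving out each array gave 7 to 8 at day 9, 5 each time at day 14, 6 to 8 and 6 to 8 in the treated steps, 1 to 3 and 5 to 7 in the control steps, and 0 to 4 for the day dependence.

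Over all tested miRNAs, calls at day 9 (170) were 83 with normexp, 95 with the higher floor, 105 with only miRNAs above background on all 15 arrays and 75 with the slide block. At day 14 (165) they were 70, 93 and 107 with normexp, the higher floor and the slide block, and 106 within slide 2, where the lone treated array is assumed to vary like the control arrays. The treated steps (180 and 203) gave 106 and 133 with normexp, the first 118 above background on all arrays and the second 133 with the higher floor. The control steps (180 and 166) gave 112 and 96 with normexp, 108 and 96 with the higher floor, and the first 99 with the slide block. The day dependence (100) gave 37 with normexp and 58 above background on all arrays.

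Slide as a random block (consensus correlation 0.0135) left all 56 member results on their side, and so did the replicate block: with it 8 and 5 members were called in treated against control at day 9 and day 14, 1 for the day dependence, 7 and 8 in the treated steps and 2 and 6 in the control steps. Leaving out each array kept 799 of 840 values. Signals near background limit miR-130b-5p, miR-148a-3p, miR-148b-3p and miR-152-3p most.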
